A study of Mus musculus with 35 samples.

Results

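HDAC2 is a class I histone deacetylase, an enzyme that removes acetyl groups from histone tails and works in repressor complexes such as NuRD, Sin3 and CoREST together with its close relative HDAC1. Loss of a deacetylase is usually read through the genes that rise, and the genes described here are those that went the other way. In these 27 genes, the share of a library's counts was lower in every *Hdac2* knockout (KO) striatum than in every *Hdac2* WT striatum. The striatum consists mainly of medium spiny neurons (MSNs), the GABAergic projection neurons that are most vulnerable in Huntington's disease, and *Hdac2* was deleted in these neurons only.

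The RNA came from the striata of 35 mice, 1 library each, aged 21.71 to 23 weeks, 22 males and 13 females. There were 8 Htt+/+ *Hdac2* WT, 7 HttQ111/+ *Hdac2* WT, 9 Htt+/+ *Hdac2* KO and 11 HttQ111/+ *Hdac2* KO mice. In the HttQ111 allele an expanded CAG tract has been knocked in to the mouse huntingtin gene, and the tract held 110 to 140 CAGs in the WT and 110 to 144 in the KO mice. KO mice carried a pair of floxed *Hdac2* alleles and the D9-Cre transgene, in which regulatory sequence of *Ppp1r1b*, the gene for DARPP-32, drives Cre in MSNs from some weeks after birth, so that interneurons, glia and vessels keep *Hdac2*. Most WT mice carried floxed alleles as well, but none had Cre, so that the transgene and the deletion cannot be told apart in these groups. The days on which RNA was extracted followed the *Hdac2* genotype in all but 2 KO mice, and day and genotype cannot be fully separated either.

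Members were chosen from CPM values (the count of a gene over all counts of the library outside the ERCC spike-ins, times 1000000). A gene was eligible with a span over 250 nt and a mean of at least 1 CPM in the 15 *Hdac2* WT libraries, which 14689 of 39109 entries were, and a member when the highest of the 20 KO libraries lay below the lowest of the 15 WT libraries. The 27 members are 0.184% of eligible genes, and 61 genes (0.415%) were separated in the same way upward. Another 3 genes, set aside by the rule, are not analysed here. Because the KO and WT values chose the members, the differences between KO and WT below are descriptions without a test.

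Totals ran from 50970712 to 77867348 counts per library (median 57322618). *Hdac2* itself ranged from 91.8 to 109 CPM (median 101) in WT and from 87.2 to 103 CPM (median 94.0) in KO libraries, and these ranges overlapped. The floxed segment covers only exons 2 to 4 and all other cell types keep the gene, so counts over the whole gene do not check the deletion. *Hdac1* ranged from 5.04 to 7.84 CPM (median 6.31) in WT and from 8.06 to 11.5 CPM (median 9.16) in KO, with no overlap. The summed CPM of 20 genes that mark MSNs of both pathways was 15426 to 22255 in WT and 16625 to 21639 in KO, so MSN markers were abundant in every library.

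The members were mostly protein-coding genes (25 of 27, 92.6%, against 90.1% of eligible genes). Their median span was 31968 bp against 22304 bp of eligible genes and 26588 bp of the genes separated upward. Their median level in WT was 78.6 CPM against 22.5 CPM of eligible genes and 11.5 CPM of those separated upward. Full separation needs a small spread between libraries as well as a difference, so the level is not independent of the rule. None was among the listed markers of MSNs, interneurons, cortical neurons, glia or vessels, or among 34 genes of class I HDACs and their corepressor complexes. Of 70 eligible potassium channel genes 1, *Kcnq3*, was a member (1.43%, against 0.184% of all eligible genes). Other families listed, such as 261 eligible solute carriers, 25 glutamate receptor and 23 calcium channel genes, held 0. At a share of 0.184%, lists this short would mostly hold 0 or 1 member, so these counts say little about the members.

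Promoters of 17 members were in the RefSeq table used (GRCm38.p6; 250 bases before to 50 after the annotated start, written 5′ to 3′ on the gene's strand). They held a median of 27 CG dinucleotides and 68.7% G and C, against 21 and 61.3% in the promoters of 10280 eligible genes. The GC box, GGGCGG on either strand, was in 11 of 17 (64.7%) and in 64.9% of the eligible promoters. The cyclic AMP response element TGACGTCA was in 1 of 17 (5.88%, against 3.23%) and the E-box CACGTG in 3 of 17 (17.6%, against 10.1%). TATAAA, also taken on either strand, was in 1 of 17 (5.88%, against 6.73%). That match was in *Ace* and lay on the opposite strand, so it does not read as TATAAA in the gene's direction. None of these motifs was in all 17, and CG counts ran from 1 in *Tchh* to 46 in *Adarb1*. The 4 promoters below show this range among members with large differences, with GC boxes in capitals. *Serpinb1b* (chr13:33083853-33084152, plus strand) has 2 CG dinucleotides and no GC box, *Ptcd1* (chr5:145167055-145167354, minus strand) has 37 and 1 box, *Ace* (chr11:105967698-105967997, plus strand) has 29 and 4 boxes of which a pair overlap, and *Chrna7* (chr7:63212477-63212776, minus strand) has 35 and 1 box.
Serpinb1b: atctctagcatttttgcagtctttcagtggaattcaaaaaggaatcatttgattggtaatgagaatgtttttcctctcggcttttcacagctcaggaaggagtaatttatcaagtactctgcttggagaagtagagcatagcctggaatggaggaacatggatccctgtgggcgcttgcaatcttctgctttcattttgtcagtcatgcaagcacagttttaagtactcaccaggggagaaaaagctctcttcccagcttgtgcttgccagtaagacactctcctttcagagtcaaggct
Ptcd1: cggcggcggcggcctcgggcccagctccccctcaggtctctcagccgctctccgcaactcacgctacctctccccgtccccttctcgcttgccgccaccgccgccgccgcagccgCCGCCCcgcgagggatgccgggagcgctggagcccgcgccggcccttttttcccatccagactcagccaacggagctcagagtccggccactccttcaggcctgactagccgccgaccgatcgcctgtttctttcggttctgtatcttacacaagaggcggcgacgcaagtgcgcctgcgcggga
Ace: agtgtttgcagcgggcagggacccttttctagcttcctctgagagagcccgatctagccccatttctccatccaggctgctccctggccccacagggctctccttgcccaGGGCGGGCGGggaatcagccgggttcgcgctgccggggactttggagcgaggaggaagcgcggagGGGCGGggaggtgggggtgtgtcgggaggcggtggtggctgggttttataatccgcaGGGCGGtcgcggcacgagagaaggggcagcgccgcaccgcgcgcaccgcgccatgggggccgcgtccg
Chrna7: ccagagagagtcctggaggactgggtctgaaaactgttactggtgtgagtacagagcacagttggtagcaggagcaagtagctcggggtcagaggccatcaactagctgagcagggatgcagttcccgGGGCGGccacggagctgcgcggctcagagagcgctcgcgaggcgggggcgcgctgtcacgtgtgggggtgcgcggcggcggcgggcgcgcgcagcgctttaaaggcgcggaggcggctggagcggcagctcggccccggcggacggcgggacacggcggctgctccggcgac

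**Figure D1:**
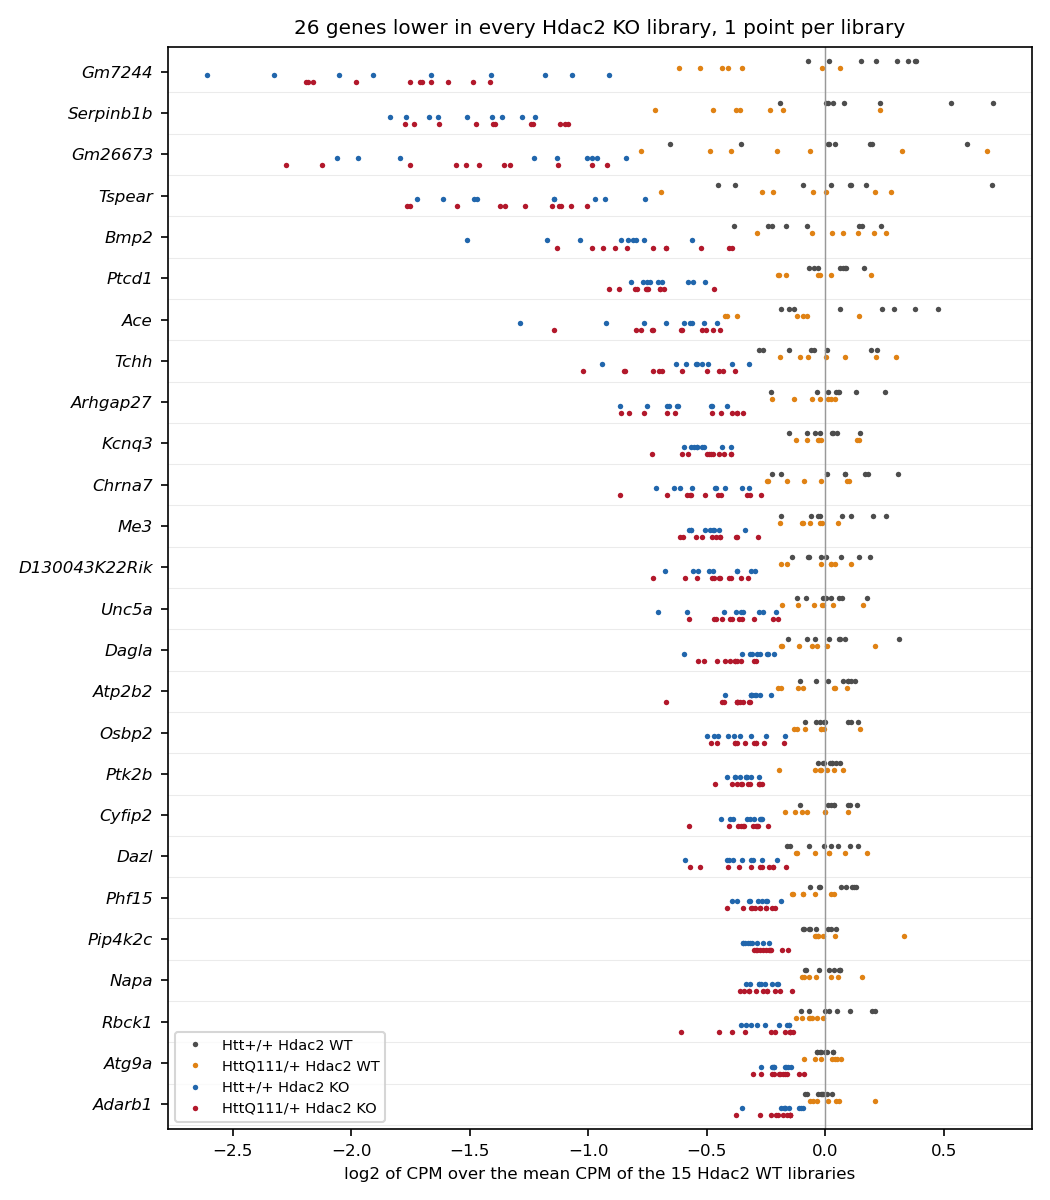
Log2 of each library's CPM over the mean CPM of the 15 Hdac2 WT libraries (horizontal axis), 1 row per gene and 1 point per library, coloured by genotype group. Blue and red KO points lie left of every grey and orange WT point in each of the 26 rows shown, from a ratio of mean CPM of 0.311 for Gm7244 at the top to 0.880 for Adarb1 at the bottom.

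The ratio of mean CPM in KO to that in WT ran from 0.311 (*Gm7244*) to 0.880 (*Adarb1*). The median log2 ratio of the members was -0.38, against 0.03 for all eligible genes. In the fit with surrogate variables, the median log2 fold change of KO against WT was -0.44 in Htt+/+ (range -1.81 to -0.19) and -0.36 in HttQ111/+ mice (range -1.64 to -0.21). In such bulk tissue, fewer cells of a type and less RNA per cell cannot be told apart.

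2 members encode subunits of ion channels or transmitter receptors. *Kcnq3*, a subunit of the voltage-gated potassium channels of the M-current, which dampens repetitive firing, ranged from 376 to 463 CPM (median 412) in WT and from 252 to 318 CPM (median 295) in KO libraries. The lowest WT library was thus 1.18 times the highest KO library, one of the widest gaps among the members, and the Htt genotypes overlapped within each *Hdac2* genotype. The mean fell from 418 ± 26.9 (SD, n = 15) to 294 ± 16.8 CPM (SD, n = 20), a ratio of 0.704. *Chrna7*, the α7 nicotinic acetylcholine receptor subunit, which forms calcium-permeable channels, ranged from 10.3 to 15.1 CPM (median 12.2) in WT and from 6.68 to 10.1 CPM (median 8.69) in KO. Its means were 12.2 ± 1.48 and 8.62 ± 0.894 CPM, a ratio of 0.708, and here the gap between the genotypes was only 1.02-fold.

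2 abundant members act in calcium signalling. *Atp2b2* encodes PMCA2, a pump that moves calcium out of neurons. It ranged from 757 to 949 CPM (median 892) in WT and from 546 to 742 CPM (median 690) in KO libraries, with means of 869 ± 65.6 and 680 ± 40.4 CPM. The highest KO library lay just below the lowest WT library, and the ratio of means was 0.783. *Ptk2b* encodes PYK2, a calcium-responsive tyrosine kinase that is abundant in the forebrain. It ranged from 560 to 675 CPM (median 645) in WT and from 464 to 532 CPM (median 508) in KO, a ratio of 0.790, and the single WT library below the others was a HttQ111/+ one.

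Lipid signalling was represented by 3 members. *Dagla* encodes the diacylglycerol lipase that makes the endocannabinoid 2-arachidonoylglycerol in postsynaptic neurons, and it ranged from 95.2 to 134 CPM (median 106) in WT and from 71.6 to 93.2 CPM (median 84.7) in KO. *Osbp2*, a sterol-binding protein, ranged from 105 to 127 CPM (median 113) in WT and from 80.9 to 102 CPM (median 88.9) in KO. *Pip4k2c*, a phosphoinositide kinase, ranged from 80.7 to 108 CPM (median 84.4) in WT and from 67.7 to 77.3 CPM (median 70.8) in KO. The ratios were 0.779, 0.785 and 0.828, and the *Pip4k2c* value of 108 CPM belonged to a single HttQ111/+ WT library that stood above the rest.

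2 members encode guidance or growth factors and their receptors. *Bmp2*, a secreted ligand of the TGF-β superfamily, ranged from 4.71 to 7.32 CPM (median 6.26) in WT and from 2.15 to 4.68 CPM (median 3.48) in KO libraries. Its ratio of means was low, 0.573, yet the lowest WT and highest KO libraries nearly touched. *Unc5a*, a receptor for the axon guidance cue netrin, ranged from 44.5 to 56.9 CPM (median 50.1) in WT and from 31.0 to 43.9 CPM (median 39.1) in KO, a ratio of 0.768.

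Of the 2 members that act on the cytoskeleton, *Cyfip2* had the highest count of all 27. *Cyfip2* encodes a subunit of the WAVE complex, which couples Rac to actin assembly and, with FMRP, is linked to local translation. It ranged from 894 to 1104 CPM (median 1016) in WT and from 676 to 851 CPM (median 804) in KO libraries. The means were 1007 ± 64.6 and 796 ± 41.0 CPM, a ratio of 0.791. *Fndc9*, which overlaps *Cyfip2* on the other strand over 4342 bp, moved the other way, from 12.5 to 17.3 CPM. *Arhgap27*, a GTPase-activating protein for small GTPases, ranged from 26.3 to 36.8 CPM (median 31.1) in WT and from 16.9 to 24.2 CPM (median 20.01) in KO, a ratio of 0.671.

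3 members act in membrane traffic and ubiquitin signalling. *Napa* encodes α-SNAP, the adaptor through which NSF takes SNARE complexes apart after fusion, and ranged from 125 to 149 CPM (median 136) in WT and from 105 to 122 CPM (median 112) in KO. *Atg9a*, a lipid scramblase of early autophagosomes, ranged from 122.89 to 137 CPM (median 131) in WT and from 106 to 122.86 CPM (median 114) in KO. *Rbck1* encodes HOIL-1, a part of the linear ubiquitin chain assembly complex (LUBAC), and ranged from 133 to 167 CPM (median 141) in WT and from 94.7 to 131 CPM (median 124) in KO. The ratios were 0.833, 0.874 and 0.839, and for *Atg9a* the ranges almost met.

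3 members act on chromatin or RNA. *Phf15*, now called *Jade2*, encodes a PHD finger protein that works with the HBO1 histone acetyltransferase. It ranged from 104 to 125 CPM (median 113) in WT and from 85.9 to 101 CPM (median 94.2) in KO libraries, a ratio of 0.818. *Adarb1* encodes ADAR2, which edits adenosine to inosine in transcripts such as that of the glutamate receptor subunit GluA2, and ranged from 174 to 213 CPM (median 182) in WT and from 142 to 173 CPM (median 164) in KO. *Dazl*, an RNA-binding protein best known from germ cells, ranged from 15.9 to 20.004 CPM (median 17.9) in WT and from 11.8 to 15.8 CPM (median 14.2) in KO. *Adarb1* had the smallest relative difference of all members (ratio 0.880), and that of *Dazl* was 0.792.

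2 members encode mitochondrial proteins. *Ptcd1*, a pentatricopeptide repeat protein of mitochondrial RNA processing, ranged from 37.3 to 49.1 CPM (median 42.3) in WT and from 22.8 to 31.0 CPM (median 25.6) in KO libraries. The lowest WT library was 1.21 times the highest KO library, and the means were 42.9 ± 3.56 and 26.2 ± 2.11 CPM (ratio 0.611). *Bud31*, which overlaps *Ptcd1* on the other strand over 470 bp, had means of 31.9 CPM in WT and 32.9 CPM in KO. *Me3*, the mitochondrial NADP-dependent malic enzyme, ranged from 68.8 to 93.9 CPM (median 77.4) in WT and from 51.4 to 64.6 CPM (median 56.5) in KO, a ratio of 0.719.

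The largest relative differences belonged to genes of low count, several of them not typical of neurons. Such genes varied more between libraries than most members, and the rule admits a variable gene only with a large difference. *Serpinb1b*, a serine protease inhibitor of the clade B serpins, ranged from 2.65 to 7.11 CPM (median 4.38) in WT and from 1.22 to 2.05 CPM (median 1.65) in KO libraries, which corresponds to 71 to 404 counts per library. The lowest WT library was 1.29 times the highest KO library, the widest gap of all members, and the ratio of means was 0.372. *Ace*, which was not of low count, encodes angiotensin-converting enzyme, a peptidase of the cell surface that MSNs carry to their terminals. *Ace* ranged from 29.9 to 55.9 CPM (median 37.6) in WT and from 16.5 to 29.5 CPM (median 26.3) in KO. Its means were 40.1 ± 8.05 and 25.3 ± 3.56 CPM (ratio 0.629), and the WT spread was the widest among members above 10 CPM relative to the mean.

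*Tspear*, a secreted protein known from hair follicle, tooth and inner ear, ranged from 2.12 to 5.59 CPM (median 3.44) in WT and from 1.01 to 2.02 CPM (median 1.48) in KO, a ratio of 0.418. *Tchh*, trichohyalin of the inner root sheath of hair, ranged from 5.97 to 8.91 CPM (median 7.01) in WT and from 3.57 to 5.80 CPM (median 4.89) in KO, a ratio of 0.661. Both genes thus had reads in every library of either genotype. *D130043K22Rik*, the mouse counterpart of *KIAA0319*, a membrane protein studied in reading disability, ranged from 25.9 to 33.7 CPM (median 29.6) in WT and from 17.9 to 24.0 CPM (median 21.5) in KO, a ratio of 0.728.

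The remaining pair are not protein coding. *Gm7244*, a processed pseudogene of 378 bp (chr9:31274898-31275275, GRCm38, plus strand), ranged from 0.955 to 1.91 CPM (median 1.48) in WT and from 0.240 to 0.778 CPM (median 0.449) in KO libraries, or 14 to 110 counts. Reads of a pseudogene can come from its parent gene, so this value is uncertain. *Gm26673* (chr6:126718684-126741601, plus strand) is antisense to the potassium channel gene *Kcna6* over 21468 bp, and ranged from 2.5999 to 7.15 CPM (median 4.49) in WT and from 0.921 to 2.49 CPM (median 1.76) in KO. Its ratio was 0.391, while that of *Kcna6* was 1.13 (means of 68.4 and 77.4 CPM), and the use of strand in the counting is not stated, so reads of this pair may be mixed.

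**Figure D2:**
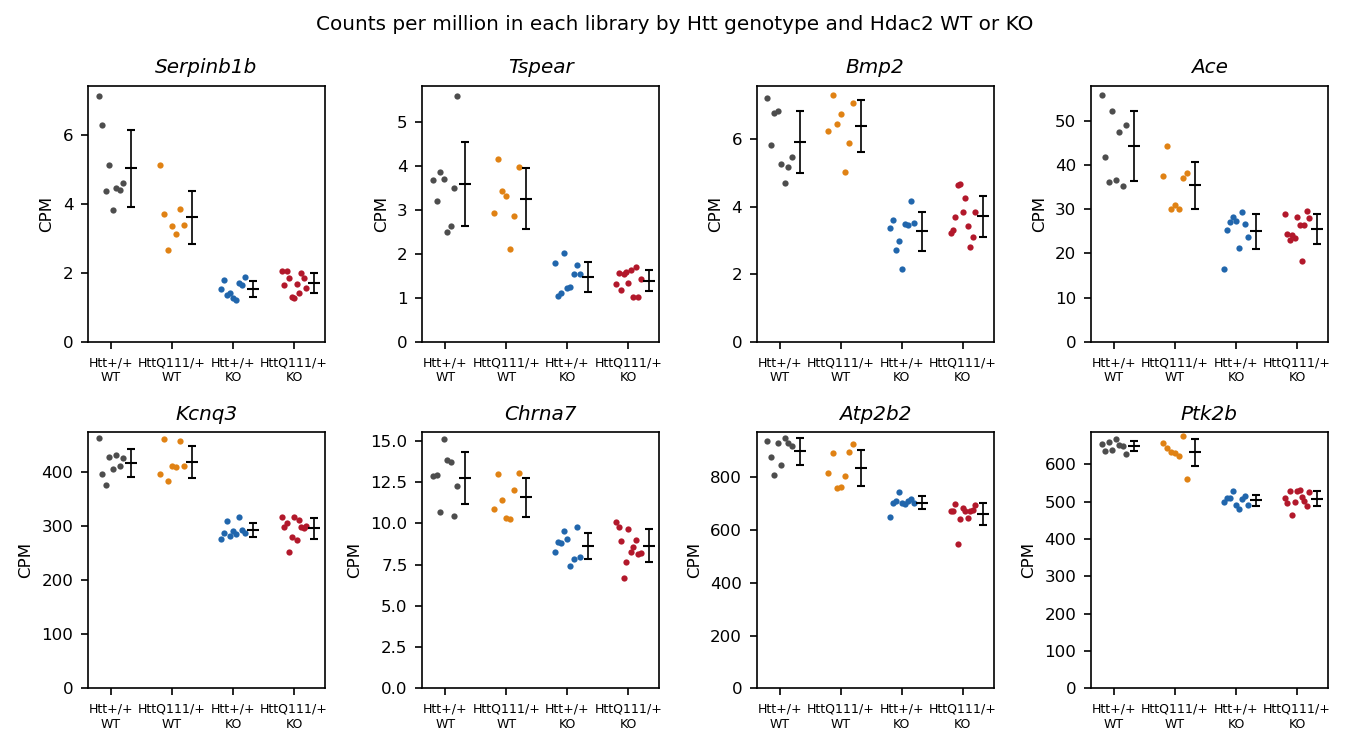
CPM (vertical axis, from 0) of 8 members in each library, grouped by Htt and Hdac2 genotype, with the mean and SD beside the points. The KO points lie below all WT points in each panel, from Serpinb1b (1.22 to 2.05 against 2.65 to 7.11 CPM) to Ptk2b (464 to 532 against 560 to 675 CPM).

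Per length of exon sequence, *Cyfip2* had the highest WT level of the genes named here (142 CPM per kb), and *Ptk2b* (86.6 CPM per kb) and *Atp2b2* (68.9 CPM per kb) were also high. *Tspear*, *Tchh* and *Gm26673* had the lowest (1.17, 1.24 and 1.32 CPM per kb). These 3 high genes differed by 20.9% to 21.7% between genotypes, and the lowest 3 by 33.9% to 60.9%.

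Membership at the edge rested on small margins. Just inside, the lowest WT library exceeded the highest KO library by a factor of 1.0003 for *Atg9a*, 1.0036 for *Dazl*, 1.0058 for *Bmp2*, 1.0068 for *Adarb1* and 1.011 for *Rbck1*. Just outside, the factor was 0.9999 for *Reep1* (means of 156 and 133 CPM), 0.997 for *Cry2* (162 and 133 CPM), 0.993 for *Noc2l* (94.6 and 84.0 CPM), 0.992 for *Nhsl2* (133 and 102 CPM) and 0.991 for *Stc1* (8.32 and 4.21 CPM). The mean difference of *Stc1* was therefore larger, relative to WT, than that of 23 of the members. Scaling the counts by TMM or by DESeq2 size factors instead of the total left 22 and 21 of the 27 members separated, and under both *Ace*, *Chrna7*, *Dagla*, *Phf15* and *Rbck1* were not.

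The lowest of the WT libraries was a HttQ111/+ library for 20 of 27 members, replicate 3 for 7 and replicate 5 for 5 of them. The highest of the KO libraries was Htt+/+ replicate 4, HttQ111/+ replicate 1 or HttQ111/+ replicate 7 for 4 members each. As a mean over members of the log2 value relative to the Htt+/+ WT mean, Htt+/+ WT libraries ran from -0.06 to 0.06 (median 0.0016), HttQ111/+ WT from -0.19 to 0.0053 (median -0.08), Htt+/+ KO from -0.68 to -0.55 (median -0.59) and HttQ111/+ KO from -0.68 to -0.56 (median -0.60). The Htt genotypes overlapped within each *Hdac2* genotype on this scale, and they overlapped for each of the 27 members too.

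The differences were also taken within the subsets of mice that the labels define. The median log2 ratio of KO to WT was -0.40 in Htt+/+ and -0.36 in HttQ111/+ mice, -0.36 in 22 males and -0.46 in 13 females. It was -0.46, -0.34 and -0.41 in the mice of ID series A, V and Z. On the 2 days that gave RNA of both genotypes, it was -0.39 (25 May, 5 WT and 1 KO) and -0.41 (27 May, 5 WT and 1 KO), with a range of -1.53 to -0.12 and of -2.11 to -0.15 over the members. The rule itself makes every member lower in any subset of these libraries, so the sign carries no information here and only the sizes are given.

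**Figure D3:**
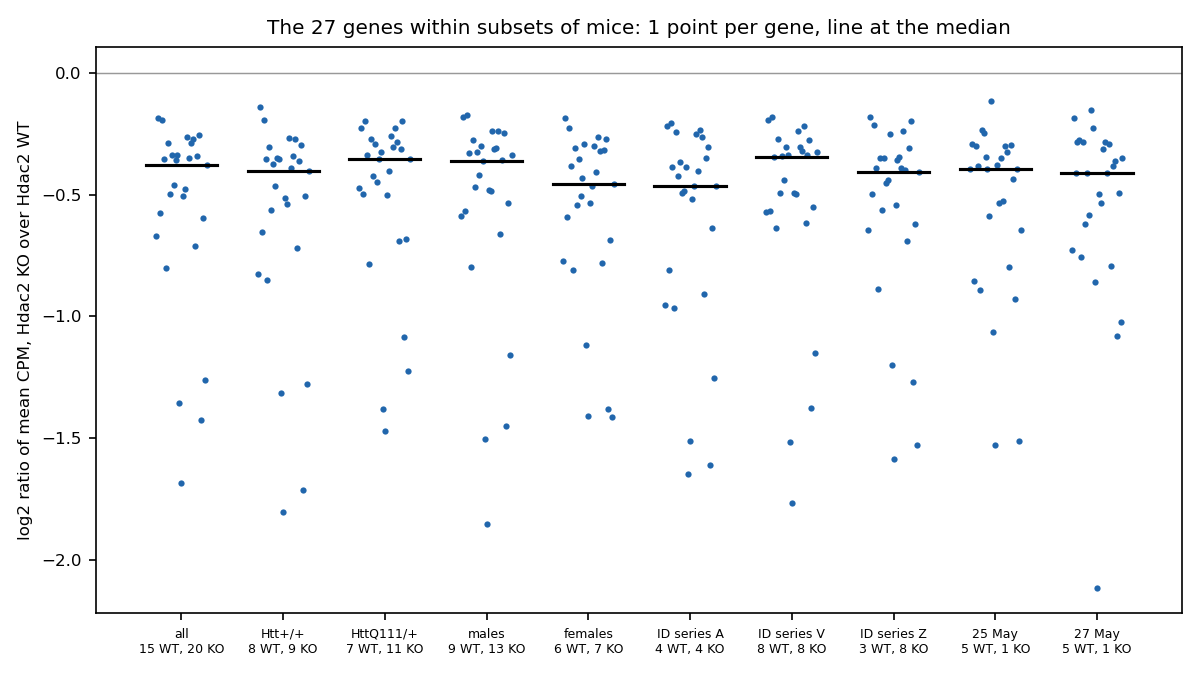
Log2 ratio of mean CPM of Hdac2 KO over Hdac2 WT (vertical axis) for the 27 members, 1 point per gene with a line at the median, in all mice and in mice of 1 Htt genotype, sex, ID series or extraction day. Medians lie between -0.46 and -0.34. The rule puts every point below 0 in any subset.

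Mean levels of cell type markers differed in part between the *Hdac2* genotypes. Among 8 eligible markers of cortical glutamatergic neurons, 6 had a lower mean in KO (median log2 ratio -0.68), and their summed CPM was 38.2 to 488 (median 62.8) in WT and 46.7 to 222 (median 57.1) in KO. That spread came from 3 libraries, HttQ111/+ WT replicate 7 (488 CPM), Htt+/+ KO replicate 6 (222 CPM) and Htt+/+ KO replicate 2 (186 CPM). Without them, an alternative chosen after the values were seen, the sums were 38.2 to 129 CPM in WT and 46.7 to 90.3 CPM in KO, and the members' median log2 ratio was -0.37 (range -1.74 to -0.17). The cortical markers' own median of -0.68 rests on means that include the library at 488 CPM. It is not given without these 3 libraries. Among 13 immediate-early genes, 11 had a lower mean in KO (median log2 ratio -0.23), with sums of 302 to 1691 CPM in WT and 392 to 1684 CPM in KO. Their median sum was 1111 CPM in WT and 601 CPM in KO among Htt+/+ mice, but 723 and 769 CPM among HttQ111/+ mice. Of the 20 markers of MSNs of both pathways 15 were lower (median -0.08). Their median sum was 21410 CPM in WT and 19916 CPM in KO among Htt+/+ mice, but 16852 and 18117 CPM among HttQ111/+ mice. Of 9 eligible markers of direct-pathway MSNs 4 were lower (median 0.05), and of 9 of indirect-pathway MSNs 3 (median 0.03). Of 4 eligible markers of choroid plexus 3 were lower (median -0.37). Their sums were 16.7 to 207 CPM (median 43.2) in WT and 22.9 to 151 CPM (median 33.6) in KO. Markers of oligodendrocytes (12 of 12 higher, median 0.13), astrocytes (8 of 10 higher, median 0.12), microglia (10 of 10 higher, median 0.14) and endothelial and mural cells (10 of 10 higher, median 0.16) went the other way, and the part of immediate-early genes and of these cell types in the members' values was not tested.

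The deviations of the libraries from their group means showed how far members varied together within groups. Over 351 pairs of members and 35 libraries, Pearson's r had a median of 0.09 and ran from -0.55 to 0.82, with 15 pairs over 0.5 and 2 under -0.5. The highest were *Atp2b2* with *Cyfip2* (0.82), *Kcnq3* with *Cyfip2* (0.74), *Kcnq3* with *Atp2b2* (0.71) and *Dagla* with *Atp2b2* (0.68). The lowest were *Ptk2b* with *Pip4k2c* (-0.55) and *Dazl* with *Adarb1* (-0.53). With the summed CPM of MSN markers, r was 0.60 for *Ptk2b*, 0.59 for *Cyfip2*, 0.52 for *Atp2b2* and 0.51 for *Kcnq3* and *Ace*, and with that of cortical markers 0.60 for *Pip4k2c*, 0.46 for *Adarb1* and -0.55 for *Ptk2b*. HttQ111/+ *Hdac2* WT replicate 7 stood apart in the cortical sum (488 CPM). It also had the highest *Pip4k2c* and *Adarb1* values and the lowest WT value of *Ptk2b*. The part of this library in these r values was not tested. All of these values share library, depth and dissection, and they are given without a test.

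The Htt genotype was not used to choose members, and its effect was tested with edgeR's quasi-likelihood F test, with p-values adjusted over all genes tested. In *Hdac2* WT mice, 69 of 17133 genes passed an adjusted p of 0.05 (0.403%), and 0 of the 27 members did. Unadjusted p was under 0.05 for 5 members and for 10.9% of all genes, and DESeq2 called 1 member (*Serpinb1b*, adjusted p = 0.048) and 0.887% of all genes. The members' log2 fold changes of HttQ111/+ against Htt+/+ ran from -0.48 to 0.11 with a median of -0.06, and 22 of 27 were below 0, against 49.0% of all genes tested. The median was -0.11 without surrogate variables and with extraction date, and -0.12 with sex and with ID series and sex, with 23 of 27 below 0 in each.

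*Serpinb1b* came closest. It ranged from 3.82 to 7.11 CPM (median 4.53) in Htt+/+ and from 2.65 to 5.11 CPM (median 3.39) in HttQ111/+ *Hdac2* WT mice, and from 1.22 to 1.86 CPM (median 1.53) and 1.27 to 2.05 CPM (median 1.66) in the corresponding KO mice. The Htt genotypes overlapped in both backgrounds. In *Hdac2* WT its log2 fold change was -0.48 ± 0.13 (SE), with an adjusted p of 0.11 by edgeR that ran from 0.0021 to 0.43 over the alternatives. Next in order of p were *Me3* (-0.12 ± 0.04, adjusted p = 0.27 by edgeR), *Phf15* (-0.08 ± 0.03), *Gm7244* (-0.45 ± 0.20) and *Atp2b2* (-0.09 ± 0.05), the last 3 with adjusted p of 0.41 to 0.46.

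The number of members past the threshold in *Hdac2* WT mice depended on the covariates. Fitted with extraction date instead of surrogate variables, it was 2, *Serpinb1b* and *Ace* (2.45% of all genes passed), and with ID series and sex it was 6, *Serpinb1b*, *Ace*, *Cyfip2*, *Phf15*, *Atp2b2* and *Gm7244* (5.01% of all genes passed). Each of these was lower in HttQ111/+ mice. *Ace* ranged from 35.2 to 55.9 CPM (median 44.6) in Htt+/+ and from 29.9 to 44.3 CPM (median 37.0) in HttQ111/+ *Hdac2* WT mice, and its log2 fold change was -0.25 ± 0.12 with surrogate variables, -0.41 with extraction date and -0.39 with ID series and sex. With ID series and sex the estimate was -0.15 for *Phf15* and -0.16 for *Atp2b2*, also larger than with surrogate variables. Over the same 2 groups, the summed CPM of MSN markers ran from 19898 to 22255 and from 15426 to 20253. Its part in these values was not tested.

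In *Hdac2* KO mice, 1 of 17110 genes passed (0.00584%), and 0 members did by edgeR or by DESeq2. Unadjusted p was under 0.05 for 3 members (7.52% of all genes), *Arhgap27* (log2 0.10 ± 0.04), *Pip4k2c* (0.06 ± 0.02) and *Unc5a* (0.09 ± 0.04). The members' median log2 fold change was 0.01, with 9 of 27 below 0, but this direction turned with the covariates. The median was -0.01 with 19 of 27 below 0 without surrogate variables, and 18 were below 0 with sex, 18 with extraction date, 16 with ID series and sex, and 22 (median -0.02) with a block for replicate number. For the average of both backgrounds 220 of 17346 genes passed (1.27%) and 0 members did by either tool, with 4 at an unadjusted p under 0.05 (12.3% of all genes). These were *Gm7244* (-0.39 ± 0.14), *Ptcd1* (-0.09 ± 0.04), *Pip4k2c* (0.05 ± 0.02) and *Atp2b2* (-0.06 ± 0.03). With ID series and sex as covariates, *Gm7244* and *Atp2b2* passed, both lower in HttQ111/+ mice, among 3.7% of all genes.

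The interaction asks whether the effect of the HttQ111 allele differs between *Hdac2* backgrounds, and equally whether the fall with *Hdac2* KO depends on the Htt genotype. It passed for 1 of 17346 genes (0.00577%) and for 0 members by edgeR or DESeq2, with 4 members at an unadjusted p under 0.05 (5.63% of all genes). *Serpinb1b* had the largest estimate, 0.63 ± 0.17 (adjusted p = 0.55 by edgeR, 0.13 to 1.00 over the alternatives), followed in order of p by *Me3* (0.15 ± 0.05), *Arhgap27* (0.14 ± 0.06) and *Ace* (0.34 ± 0.16). The estimates were above 0 for 24 of 27 members (median 0.06), while 51.6% of all genes tested were below 0. An estimate above 0 means that the difference between KO and WT was estimated larger in Htt+/+ than in HttQ111/+ mice. Members below 0 numbered 3 in this fit, 6 with at least 20 counts and 9 with a block for replicate number (median 0.04). All contrasts share libraries, and the lowest HttQ111/+ WT value bounded the rule for most members, so these signs are not independent of each other or of the choice.

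**Figure D4:**
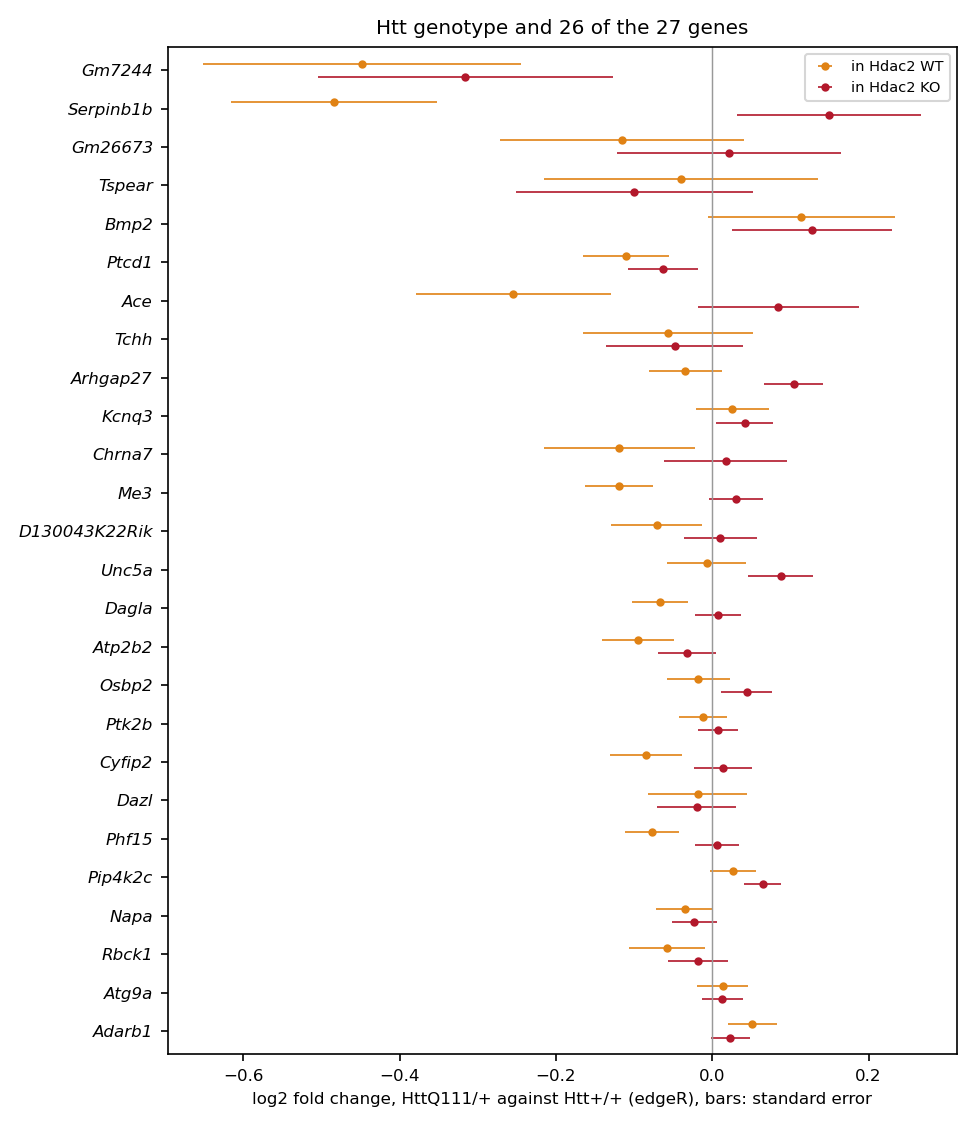
Log2 fold change of HttQ111/+ against Htt+/+ mice (horizontal axis) with its standard error for 26 of the 27 members, in Hdac2 WT (orange) and Hdac2 KO mice (red). Over all 27 members, 22 estimates in Hdac2 WT were below 0 (median -0.06) and 9 in Hdac2 KO (median 0.01), against 23 and 19 without surrogate variables, and none passed the adjusted threshold in either.

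Sex was not used to choose members either. Between females and males, 14 of 17346 genes passed (0.0807%) and 0 members did by edgeR or DESeq2, with 6 members at an unadjusted p under 0.05 (8.32% of all genes). *Dagla* (0.13 ± 0.04) and *D130043K22Rik* (0.12 ± 0.04) had the lowest adjusted p, 0.41 each by edgeR. *Pip4k2c*, *Kcnq3*, *Atp2b2* and *Ace* followed with estimates of 0.07 to 0.16, and all 6 were higher in females. The direction over all members depended on the covariates. Their median estimate was 0.05 in this fit and 0.04 with extraction date added, with 6 of 27 below 0 in each. With ID series added the median was 0.0084 (11 below 0), and with a block for replicate number -0.0056 (15 below 0).

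Close relatives of the members were picked by family after the members were known. Over 20 families and complexes, 74 related genes were eligible, 43 of them with a lower mean in KO, and their median log2 ratio was -0.03 (range -0.47 to 0.47). Of all 14689 eligible genes, 6029 had a lower mean in KO, with a median of 0.03. The members were chosen for their fall, so a smaller fall in most relatives follows from the choice. Beside *Kcnq3*, the M-channel subunit gene *Kcnq5* had means of 160 CPM in WT and 137 CPM in KO. Of the nicotinic receptor subunits, *Chrna4* had 14.2 and 12.3 CPM, and *Chrnb2*, whose KO libraries all lay above its WT libraries, 60.3 and 73.4 CPM.

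Among calcium genes, the pumps *Atp2b1* (1798 and 1737 CPM), *Atp2b3* (80.7 and 67.8 CPM) and *Atp2b4* (67.6 and 93.9 CPM) went in both directions. *Ptk2*, the focal adhesion kinase next to *Ptk2b*, had 103 and 101 CPM, and *Cyfip1*, the paralog of *Cyfip2*, 90.0 and 95.7 CPM. In some families a relative moved as far as the member. *Phf17* (*Jade1*) had 70.9 and 58.3 CPM, a log2 ratio of -0.28 against -0.29 for *Phf15*, *Adar* had -0.19 against -0.18 for *Adarb1*, the netrin receptor *Dcc* -0.32 against -0.38 for *Unc5a*, and *Atg9b*, at 3.78 and 2.73 CPM, -0.47 against -0.19 for *Atg9a*. *Serpinb1a*, the nearest relative of *Serpinb1b*, had 18.7 and 21.9 CPM, and reads shared by near-identical serpins may have been lost in the counting of unique alignments.

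**Figure D5:**
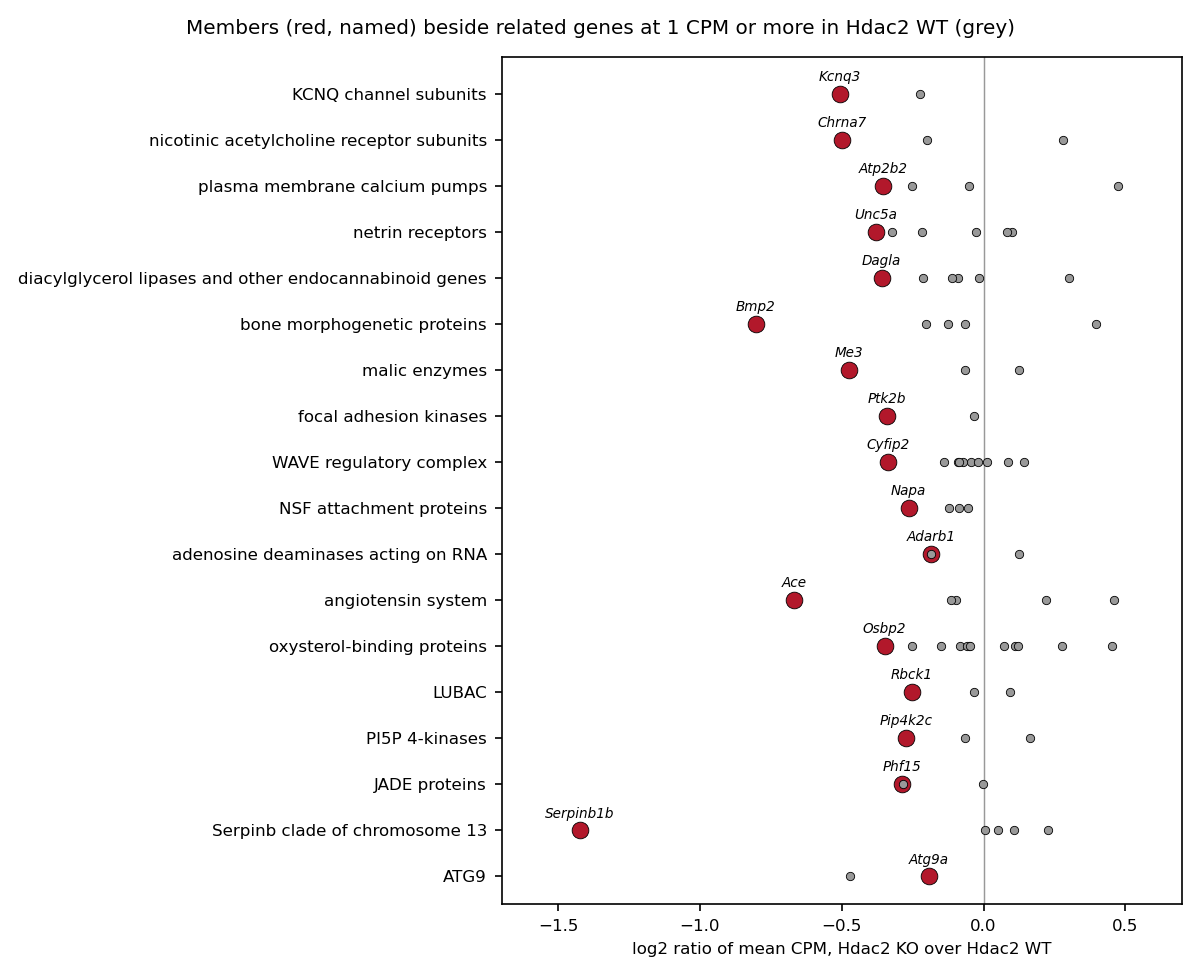
Log2 ratio of mean CPM of Hdac2 KO over Hdac2 WT (horizontal axis) for members (large red points, named) and eligible genes of the same family (small grey points), 1 row per family with at least 1 such relative. Most of the 63 related genes shown lie to the right of the member, which the choice of members by their fall favours. Atg9b (-0.47) lies to the left of Atg9a (-0.19).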

How the data were processed

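Per the paper's methods, stranded mRNA libraries were aligned to GRCm38 with GSNAP and unique alignments were counted at Ensembl genes with bedtools. The authors deposited raw counts per gene and library, without normalization. Whether strand was used, or mates of a pair were counted apart, is not given in the sources used here. The table gives each gene as 1 interval, so reads in introns may be included, and values per exon length would then be too high.

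Members and gene lists were chosen with earlier results of these data known. Every member could be named, except 1 that is not reported here, with full values for the 12 lowest ratios, the 8 highest counts and the 5 genes on either side of the rule. Relatives and role groups were chosen after the members. CPM were computed in Python 3.11.15. Contrasts were fitted in R 4.3.3 with edgeR 4.0.16 (quasi-likelihood F test, TMM), 9 surrogate variables (sva 3.50.0) and genes that had 6 counts or more throughout 1 or more of the compared groups, out of 32863 after 92 spike-ins, 6152 short spans and 2 mitochondrial rRNAs were left out. The fit by sex used the 4 groups and sex. Adjustment was by the Benjamini-Hochberg method at 0.05. On simulated counts of 17346 genes for HttQ111/+ against Htt+/+ in *Hdac2* WT, 82% of changes of 0.5 and 99% of changes of 1 (log2) were recovered in a fit without surrogate variables, which says nothing of the power with them.

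Alternatives were other covariates, size factors, DESeq2 1.42.0, count filters, and males only; for the rule, also each library left out. Leaving out the 3 libraries richest in cortical markers was chosen after seeing the data. Exon lengths came from GENCODE M21, promoters from RefSeq. Mice are the replicates.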

Additional observations from a re-analysis of the deposited data

Results flagged for a closer look

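Each member was examined for a library apart from its group, in the 3 groups of 7 to 9 mice, by the gap of the highest or lowest value to the next over the range of the group. Of 81 such tests 6 stood out, and chance gives about 5%. In Htt+/+ *Hdac2* WT replicate 9, *Tspear* was highest at 5.59 CPM (next 3.85 CPM). In HttQ111/+ *Hdac2* WT replicate 7, *Pip4k2c* was highest at 108 CPM (next 88.6 CPM) and *Adarb1* at 213 CPM (next 192 CPM). This is the library with the highest sum of cortical neuron markers, 488 CPM, and the part of that RNA in both values was not tested. In Htt+/+ *Hdac2* KO replicate 1, *Dagla* was lowest at 71.6 CPM (next 84.7 CPM), *Atp2b2* at 649 CPM (next 699 CPM) and *Adarb1* at 144 CPM (next 162 CPM). This library had the highest sum of oligodendrocyte markers, 10178 CPM, whose part was not tested.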

How the results depend on the processing

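The number of genes that met the rule ranged from 27 to 42 with 1 library left out, and was 42 without HttQ111/+ *Hdac2* WT replicate 7, the one library that moved it by over 1.5 times, and without the 3 libraries richest in cortical markers. It was 77 in males only, 209 in Htt+/+ and 62 in HttQ111/+ mice, and each of these subsets holds all 27 members by construction. It was 47 with TMM scaling and 45 with DESeq2 size factors, which kept 22 and 21 of the members, and 25 without mitochondrial genes in the total, which kept 20. *Ace*, *Chrna7*, *Dagla* and *Rbck1* left under each of these scalings. The members' median log2 fold change of KO against WT, chosen by this contrast and not tested, was -0.43 in Htt+/+ and -0.32 in HttQ111/+ mice with extraction date in the fit, against -0.44 and -0.36.

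HttQ111/+ against Htt+/+ in *Hdac2* WT called 419 genes and 2 members with extraction date, 858 and 6 with ID series and sex, and 152 and 1 with DESeq2. It called 34 genes with no count filter, 31 with at least 20 counts and 10 in males only. In *Hdac2* KO the counts were 0 with extraction date, in males only and without the 3 libraries, 3 with DESeq2 size factors and with at least 20 counts, 4 with no count filter and 42 with the DESeq2 test. The interaction gave 5 with ID series and sex, 3 with DESeq2, and 0 with no surrogate variables, sex, extraction date, either filter, males only and without the 3 libraries. The average effect gave 403 with extraction date, 641 genes and 2 members (*Atp2b2* and *Gm7244*) with ID series and sex, 374 with DESeq2, 144 with no count filter, 119 in males and 91 without the 3 libraries. Females against males gave 29 with DESeq2, 5 in *Hdac2* WT only and 8 in *Hdac2* KO only. *Unc5a* in *Hdac2* KO reversed to -0.0093 without surrogate variables and to -0.0097 with sex. Of 218 alternative values of single genes 206 kept direction and call, 8 passed the threshold and 4 reversed. The cause of these changes was not tested.

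Replicate numbers gave no clear pairing of the samples. Same-numbered pairs (45) had correlations of -0.21 to 0.29 (median 0.04), against a median of -0.01 over 410 other pairs. For 8 libraries the closest library of another group had the same number. The numbers follow the order of ID series within each group, so a replicate block partly carries the series. With the replicate block the counts were 13 in *Hdac2* WT, 23 in *Hdac2* KO, 0 for the interaction, 365 for the average and 9 for sex, with 0 members in each, and *Arhgap27* and *Unc5a* in *Hdac2* KO reversed to -0.0093 and -0.0067.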

Other observations

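Members lay on 15 chromosomes, with 5 on chromosome 11 (0.423% of its 1183 eligible genes) and 3 each on chromosomes 7, 10 and 13. The nearest pair, *Adarb1* and *Tspear* on chromosome 10, had centres 503772 bp apart. Beside the lower *Chrna7*, other nicotinic subunits below the level required of members had higher means in KO: *Chrnb4* 0.848 CPM in WT and 4.44 CPM in KO, *Chrna3* 0.835 and 1.48 CPM, and *Chrna5* 0.444 and 1.02 CPM. These values were picked after they were seen and were not tested.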
